A study of Mus musculus with 10 samples.

Results

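The RNA of small intestinal organoids was compared with a commercial mouse reference RNA on 2 of the 10 two-colour arrays of the study, chosen by their labels as the pair from the R-spondin withdrawal experiment. Organoids are cultures of intestinal epithelium that grow from crypts in a gel, here in crypt medium with EGF, Noggin and R-spondin. After splitting they were kept for 1 day without R-spondin (the array labelled EN) or with it (the control, ENR), and the labels give neither the genotype, strain nor age of the donor mice. Each medium had 1 culture on 1 array, so there was no replicate of either, and no test of a gene was run. On both arrays the organoid RNA carried the dye Cy5 and the Stratagene mouse reference RNA carried Cy3. Such reference RNA is a pool from cell lines of many tissues, among them fibroblasts, macrophages, lymphocytes, muscle, kidney, liver and testis cells, so it holds little RNA of intestinal type. Of the other arrays, 2 of wild type organoids (from VillinCre_wt mice, labelled as 1 day of Tamoxifen induction) and the wild type side of 4 arrays of isolated crypts were used for comparison. The crypt arrays set wild type crypts against crypts 1 day after deletion of Lgr4 and Lgr5 with AhCre, in 2 replicates with swapped dyes. The remaining 2 arrays, of organoids with Lgr4 and Lgr5 deleted, were not used here.

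Intestinal epithelium is renewed from stem cells at the crypt base, whose daughters become absorptive enterocytes or secretory Paneth, goblet, enteroendocrine and tuft cells. R-spondin strengthens Wnt signalling and keeps the stem cells in culture. Enterocytes carry the brush border with its digestive enzymes and transporters, Paneth cells secrete antimicrobial peptides, goblet cells mucus, and enteroendocrine cells peptide hormones. Fibroblasts, immune cells and muscle, which surround the crypts in the intestine, are not part of the epithelium.

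Of 28034 gene names on the array, 17205 entered the comparison, because a probe was above background on both arrays in the organoid channel or in the reference channel. A gene above background in only 1 channel had to differ between them, which the counts below contain. The ratio of organoid to reference was taken on the log2 scale, and a gene was called enriched or depleted when it passed 4-fold in the same direction on both arrays. By that rule 1489 genes were enriched (8.65% of those that entered) and 2110 were depleted (12.3%). The reference was not above background on either array for 416 of the enriched genes (27.9%), and the organoid was not for 805 of the depleted genes (38.2%). For such a gene the ratio is given as a lower bound, computed against the lowest signal above background. With the bound in place of the ratio for every signal not above background, 1285 of these genes stayed past 4-fold in the organoid on both arrays (7.47% of those that entered) and 1832 in the reference (10.6%). Within 2-fold on both arrays lay 7198 genes (41.8%). The array without R-spondin alone would have called 2035 genes enriched (11.8%) and 2893 depleted (16.8%), and the array with it 1646 (9.57%) and 2339 (13.6%). Past 64-fold on both arrays were 181 genes in the organoid and 147 in the reference.

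The arrays gave close to the same ratios, which the plot of gene ratios shows. Pearson's r across genes, which are not independent, was 0.939 over the 17205 genes, with the same reference RNA on both arrays. The ratio differed between the arrays by a median of 0.41 and with an SD of 0.80 over genes, a spread that includes the effect of the medium. Between spots of the same probe the median SD was 0.095 without R-spondin and 0.090 with it, over 187 probes. Just inside the threshold (by 0.25 or less) lay 200 enriched and 220 depleted genes, and just outside it 236 and 234. Below, values are given without R-spondin first and with R-spondin second, and signals are in the scanner's processed units. A list member said to be below background did not enter, because neither channel was above background on both arrays. Such a gene can have been above background on 1 array.

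**Figure D1:**
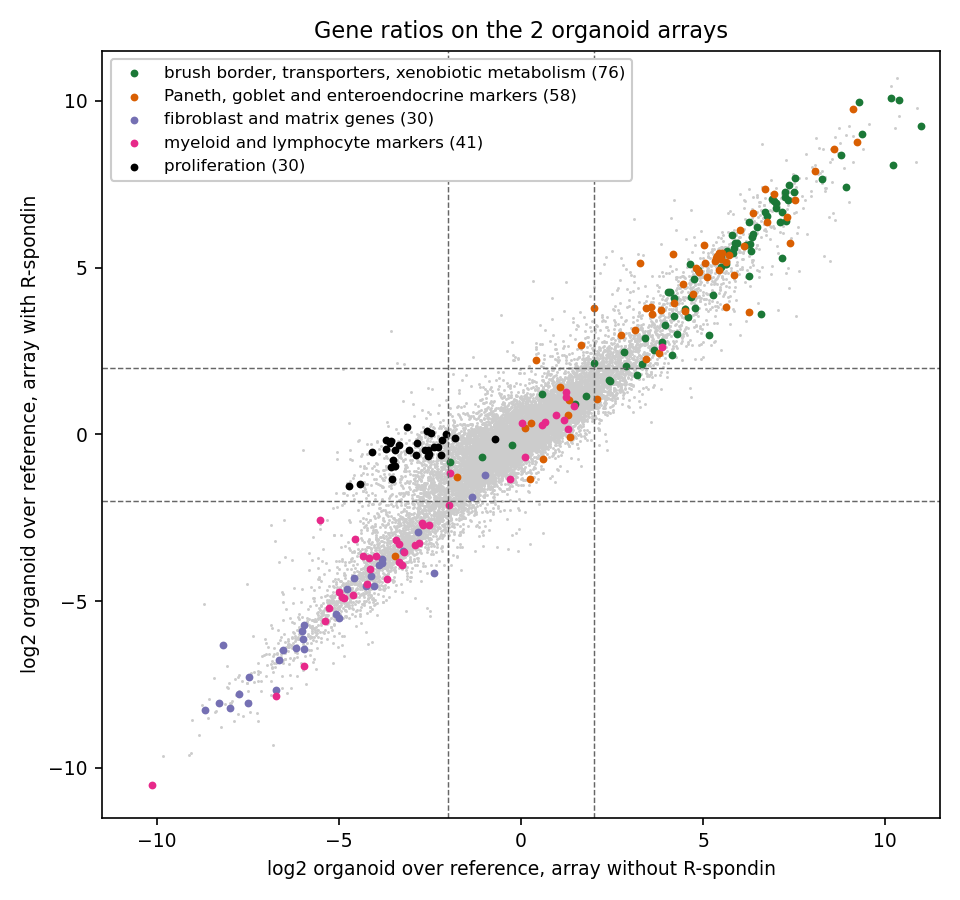
Each grey point is a gene, placed by its log2 ratio of organoid to reference RNA on the array without R-spondin (horizontal axis) and with R-spondin (vertical axis); dashed lines mark 4-fold and coloured points are genes of named lists, with their number. The points lie along the diagonal (r = 0.939), epithelial lists in the upper right and fibroblast, myeloid and lymphocyte lists in the lower left, while the 30 proliferation genes lie to the left of the diagonal near 0 with R-spondin.

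Transcription factors that define intestinal epithelium were mostly higher in the organoids. Of 28 listed, 27 entered, 20 were enriched and none was depleted, with medians of 4.61 and 4.70 against 0.08 on both arrays over all genes that entered. Cdx2, the homeobox factor that specifies intestinal identity, had organoid signals of 38379 and 42561 and reference signals of 305 and 334, log2 ratios of 6.98 and 7.00. Hnf4a, a nuclear receptor of enterocytes, had 15438 and 9289 in the organoids against 109 and 68, ratios of 7.15 and 7.09. For both genes the 2 organoid signals lay far above the 2 reference signals. Isx, a homeobox regulator of vitamin A uptake, stood highest of the list with 8.54 and 8.24. Cdx1 was at least 45.7-fold higher without R-spondin and had a ratio of 5.53 with it. Members with broad expression stayed in between: Gata6 had 1.93 and 1.61, and Klf4 0.55 and -0.32. A dimmer probe of Gata6 had 2.89 and 2.46. Maf went the other way, with -0.88 and -2.86. Sox9, a factor of crypt progenitors and Paneth cells, had -1.37 without R-spondin and 1.45 with it. Nr1h4 was left out because its spots were marked by the scanner software.

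Genes of cell junctions and simple keratins were called almost throughout, 28 of the 31 that entered, none of them depleted, with medians of 4.70 and 4.35. Cdh1 (E-cadherin) had organoid signals of 31162 and 21104 against 212 and 160, ratios of 7.20 and 7.04. The intestinal cadherin Cdh17 had 16857 and 6417 against 95 and a signal not above background, a ratio of 7.48 and at least 178-fold. Epcam, an adhesion molecule of most epithelia, had a smaller difference, 3.29 on both arrays. The splicing regulator Esrp1 was at least 37.2-fold and 48.6-fold higher and its paralog Esrp2 had 5.03 and 4.72. Krt18 stayed just under the threshold without R-spondin (1.93 and 2.07), with high signals in both RNAs: 370754 and 340480 in the organoids and 97538 and 81045 in the reference. Krt8, Krt19, Krt20, Cldn4, Cldn7 and Lgals4 had marked spots only.

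Brush border and digestive genes followed the same direction: 21 of 24 that entered were enriched and none depleted, medians 4.70 and 4.46. Vil1 (villin, which bundles actin in microvilli) had 272068 and 97702 in the organoids against 4792 and 2253, ratios of 5.83 and 5.44. Lct (lactase) had 55237 and 26958 against 726 and 329, ratios of 6.25 and 6.36. Alpi, the alkaline phosphatase of mature enterocytes, had 5.67 and 5.50. The organoid signals of these 3 genes lay above every reference signal, and each was lower with R-spondin than without. Enpep, a brush border aminopeptidase, had the largest ratios, 8.93 and 7.40. Ezr (ezrin) and Eps8, found in many cell types, had 1.49 and 0.92, and -0.26 and -0.31. Mep1b and Akp3 were below background, and Mep1a, Anpep, Sis, Ggt1 and Xpnpep2 were among the members that had marked spots only.

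Of the nutrient and ion transporters, 18 of 24 were enriched and none depleted, medians 5.66 and 4.68. Slc5a1, the sodium-glucose transporter, had 36607 and 18300 in the organoids against 2223 and 948, ratios of 4.04 and 4.27. Slc6a19, which takes up neutral amino acids, had 38278 and 7825 against 87 and a signal not above background, a ratio of 8.78 and at least 217-fold. The chloride exchanger Slc26a3 was at least 257-fold and 66.3-fold higher. Cftr, the chloride channel of crypt cells, was at least 75.8-fold and 113-fold higher. The organoids were higher for all 4 genes on both arrays. Slc40a1 (ferroportin, which exports iron) went the other way within 4-fold, -1.07 and -0.67.

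Lipid absorption genes were enriched in 15 of 20, medians 4.74 and 4.01. Apob and Mttp, which build chylomicrons, had ratios of 7.33 and 6.88, and of 6.60 and 5.92. Apoa1 had 78154 and 23187 in the organoids against 1376 and 384, ratios of 5.83 and 5.92. Npc1l1, the cholesterol importer, had 6.26 and 6.01. These genes differed from the reference in the same direction on both arrays. Scarb1, an HDL receptor, was the depleted member, with 700 and 1201 against 5444 and 5126, ratios of -2.96 and -2.09. Fabp1, Fabp2, Apoa4, Mogat2 and Bco1 had marked spots only, and Fabp6 was among the members below background.

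The list with the highest medians was that of xenobiotic and drug metabolism, 6.80 and 6.20, with 27 of 28 members enriched. Cyp2c65, a cytochrome P450, had 309469 and 130077 in the organoids against 231 and 125, ratios of 10.39 and 10.02. Ces2e, a carboxylesterase, had 142958 and 54204 against 219 and 106, ratios of 9.35 and 8.99. The sulfotransferases Sult1d1 and Sult1b1 reached at least 1001-fold without R-spondin for the first and at least 486-fold with it for the second. Adh1, an alcohol dehydrogenase, had 7.24 and 7.13, and Aldh1a1, a retinal dehydrogenase, 7.18 and 5.28. Each of these was past 16-fold on both arrays. Gsta4 was the member in between, with 3.19 and 1.78. Many Cyp2c, Cyp3a, Ces and Ugt genes have near-identical copies, so which copy a probe measured is uncertain.

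Promoters of enriched genes were searched for 6 short motifs of intestinal and blood cell factors in the 250 bases before each annotated start, on both strands, with RefSeq sequences of GRCm38.p6. Sequences were found for 1030 enriched genes (1324 promoters), 1378 depleted genes (1778 promoters) and 27025 genes in all (32851 promoters). The HNF1 motif GTTAATNAT was in 27 enriched promoters (2.04%), 4 depleted ones (0.225%) and 0.737% of all. A longer form with 1 more T at its end was in 21 enriched promoters (1.59%), 1 depleted promoter (0.0562%) and 0.371% of all. The HNF4 motif CAAAGTCCA was in 16 enriched promoters (1.21%), 7 depleted ones (0.394%) and 0.384% of all. Both motifs were rare in every group, and the share in enriched promoters was the highest for each. The CDX motif TTTATNG was in 8.61% of enriched, 7.14% of depleted and 9.81% of all promoters. The GATA motif AGATAA was in 9.67%, 6.02% and 9.99%, and the AP-1 motif TGANTCA in 8.08%, 6.81% and 6.75%. The PU.1 motif GAGGAAGT was in 3.02%, 2.87% and 2.44%. Among 11225 promoters of genes that entered and were called neither way, the shares were 0.419% for HNF1, 0.312% for HNF4, 6.81% for CDX, 6.46% for GATA, 4.50% for AP-1 and 2.18% for PU.1. For each of these 6 motifs the enriched share was above the share of such genes, and for CDX and GATA it was below that of all promoters. A match describes letters only, not a bound site, and no test was made. The enriched promoters with the HNF4 motif included those of Cyp2c40, Cyp2c65, Cyp3a11, Cyp3a16 and Cyp3a41a. These belong to families with near-identical copies, so their promoters are not independent.

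The promoters of the 2 enriched genes of highest rank that held each of the motifs HNF1 and HNF4 are shown because they place the letters in genes with some of the largest ratios. Rank was by the smaller of the 2 ratios. They are written 5′ to 3′ on the gene's strand, with the motif, on either strand, in capitals. Sult1d1 lies at chr5:87569007-87569256 on the minus strand, Slc26a3 at chr12:31437969-31438218 on the plus strand, Cyp2c65 at chr19:39060756-39061005 on the plus strand and Cyp3a16 at chr5:145469724-145469973 on the minus strand.
Sult1d1, HNF1: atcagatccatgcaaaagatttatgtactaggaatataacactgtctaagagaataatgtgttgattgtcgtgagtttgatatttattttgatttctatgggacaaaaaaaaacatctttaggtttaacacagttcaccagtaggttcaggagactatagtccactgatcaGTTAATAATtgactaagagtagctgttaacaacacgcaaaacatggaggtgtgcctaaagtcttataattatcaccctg
Slc26a3, HNF1: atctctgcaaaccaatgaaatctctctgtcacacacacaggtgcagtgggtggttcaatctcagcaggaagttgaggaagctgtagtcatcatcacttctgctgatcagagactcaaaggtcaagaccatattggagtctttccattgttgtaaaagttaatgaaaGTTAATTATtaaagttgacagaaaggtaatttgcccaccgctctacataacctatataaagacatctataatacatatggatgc
Cyp2c65, HNF4: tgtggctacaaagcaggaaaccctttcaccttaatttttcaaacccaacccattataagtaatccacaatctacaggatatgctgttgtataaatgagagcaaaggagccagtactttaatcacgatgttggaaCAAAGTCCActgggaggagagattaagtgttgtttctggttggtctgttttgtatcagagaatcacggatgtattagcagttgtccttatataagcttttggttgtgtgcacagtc
Cyp3a16, HNF4: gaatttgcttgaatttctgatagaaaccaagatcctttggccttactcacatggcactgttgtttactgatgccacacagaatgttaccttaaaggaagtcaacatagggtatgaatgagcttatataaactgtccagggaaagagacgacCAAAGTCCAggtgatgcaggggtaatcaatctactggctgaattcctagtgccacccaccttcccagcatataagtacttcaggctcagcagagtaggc
Cyp3a16, another cytochrome P450, had organoid signals of 12571 and 4110 against 50.2 and a signal not above background, a ratio of 7.97 and at least 114-fold. Each of the 4 promoters held 1 copy of its motif. Other enriched genes with the HNF1 motif included Npc1l1, Cdhr2, Slc10a2 and Nr5a2, and others with the HNF4 motif included Alpi, Treh, Slc3a1, Muc13 and Cyp3a11.

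Paneth cell products were among the brightest organoid signals. Of 16 markers that entered 13 were enriched and none depleted, medians 4.96 and 5.34. The alpha-defensin Defa20 had 400530 and 461672 in the organoids against 728 and 532, ratios of 9.10 and 9.76. Lyz1, the lysozyme of Paneth cells, had 52926 and 97249 against 2935 and 2274, ratios of 4.17 and 5.42. Mmp7, the protease that activates defensins in mice, had 5.50 and 5.26, and Ang4, an antimicrobial ribonuclease, 6.71 and 7.37. All of these were past 16-fold on both arrays. Pnliprp2, a lipase, was at least 111-fold and 159-fold higher. Wnt3, the Wnt ligand that Paneth cells make, was at least 6.67-fold higher without R-spondin and had a ratio of 5.12 with it. Cd24a, made by immune cells too, had 0.42 and 2.24. Defensin genes are near-identical copies of each other, so single members are uncertain.

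Goblet cell markers were enriched in 16 of 19, with none depleted and medians of 5.11 and 4.71. Muc2, the gel-forming mucin, had 24221 and 3071 in the organoids against 736 and 88, ratios of 5.04 and 5.12. Tff3 (trefoil factor) had 323829 and 163761 against 11653 and 5198, ratios of 4.80 and 4.98. Clca1, a secreted protease of mucus, had 215387 and 28306 against 360 and 65, ratios of 9.22 and 8.76. In all 3 the reference signal was lower with R-spondin, as was the organoid signal. The transcription factors Spdef and Atoh1 had 5.35 and 5.28, and 3.59 and at least 12.2-fold. Agr2, which folds mucins, had 6.75 and 6.38.

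Hormone genes of enteroendocrine cells were enriched in 15 of 23 with 1 depleted, medians 3.80 and 3.70. The granule protein Chgb had 153965 and 63684 in the organoids against 398 and 169, ratios of 8.59 and 8.56. Chga, its paralog, had 6.14 and 5.65. The hormones Sct (secretin) and Gip had 6.00 and 6.13, and 5.71 and 5.36, and Cck was at least 111-fold and 56.7-fold higher. Hormones of several enteroendocrine types were thus present in both cultures, with Gcg (glucagon) at least 14.1-fold and 14.3-fold higher. The endocrine progenitor factor Neurog3 had 1.65 and 2.67. Cpe, a carboxypeptidase of many secretory cells, was depleted, with 1458 and 1069 against 16082 and 13334. Tph1, Neurod1 and Isl1 were below background.

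Tuft and stem cell lists had fewer members enriched and medians nearer 0 than the Paneth, goblet and enteroendocrine lists. Of 17 tuft markers 3 were enriched (17.6%, against 8.65% of all genes) and 4 depleted (23.5%, against 12.3%), medians 0.03 and -1.13. Trpm5, the taste channel of tuft cells, was at least 8.84-fold and 5.46-fold higher, and Rgs13 at least 15.1-fold and 5.07-fold. Ptgs1 and Alox5ap, enzymes of eicosanoid synthesis that blood cells use too, had -6.22 and -6.54, and -3.43 and -3.65. Dclk1 had -1.85 and -2.94. Pou2f3 and Il25 were below background.

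Of 22 stem cell markers 7 were enriched (31.8%, against 8.65% of all genes) and 1 (Bmi1) depleted (4.55%, against 12.3%). The medians were 0.56 and 1.66. Lgr4, the R-spondin receptor found across the epithelium, had 4458 and 3487 in the organoids against 739 and 610, ratios of 2.59 and 2.51. Olfm4, a marker of crypt base stem cells, had 162 and 20727 against a signal not above background and 229. Its organoid was at least 3.76-fold higher without R-spondin and had a ratio of 6.50 with it. Smoc2 had 2.62 and 4.33, and Ascl2, a Wnt target and stem cell factor, 1.88 and 3.22. These 3 genes were higher in the organoids on both arrays and further so with R-spondin. Hopx had 3.40 and 4.44. Other members went the other way: of the 22 markers 11 were above 0 on both arrays and 5 below 0 on both. Bmi1 had -2.93 and -2.18. Means of the 2 arrays ran from -3.13 to 6.17 over the list, and 14 members were in between. Lgr5 and Axin2 were below background on an array and gave no call.

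Genes of mucosal defence were enriched in 17 of 22, medians 5.32 and 4.55. Reg3b and Reg3g, antimicrobial lectins, had 22402 and 6658, and 19893 and 3611, in the organoids. Their ratios without R-spondin were 8.11 and 7.27, and with it they were at least 185-fold and 100-fold higher. Pigr, which carries antibodies across the epithelium, had 5.97 and 6.11, and the membrane mucin Muc13 5.57 on both arrays. Each of these 4 genes was past 16-fold on both arrays. Lcn2, an iron-binding protein made in inflammation, was at least 8.64-fold and 7.92-fold lower in the organoids. Nos2 was below background, and Saa1 had -1.61 and -2.10.

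Ligands of the crypt niche were called in both directions. Of 24 that entered 7 were enriched (29.2%, against 8.65% of all genes) and 3 depleted, medians 0.64 and 0.72. The depleted share of 12.5% was near the 12.3% of all genes. Wnt3, above, and the growth factor Areg (3.63 and 2.49) were among those enriched. Ihh (Indian hedgehog) had 3450 and 1508 in the organoids against 74 and a signal not above background, a ratio of 5.55 and at least 34.2-fold. Dll1, a Notch ligand of secretory progenitors, had 4.83 and 4.81. The depleted ligands were Bmp4 (-2.82 and -3.14), Nrg1 (-4.14 and -4.09) and Rspo2, at least 8.73-fold and 7.61-fold lower. All 3 are known as products of mesenchyme. Rspo1 and Rspo3 were below background. Grem1 had -1.84 and -1.96.

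Markers of gut segments were few. Of 7 duodenum and jejunum markers 4 were enriched, among them Lct, above, and Gata4 (3.52 and 3.07), a factor of the proximal intestine. Of 6 ileum markers 3 entered and were enriched: Slc10a2, the ileal bile acid importer, at least 6.12-fold and 3.12-fold higher, Slc51a (6.16 and at least 51.6-fold) and Slc51b (6.29 and at least 28.7-fold). Fabp6 and Fgf15, further ileum genes, were below background. Some proximal and some distal markers were thus enriched in both cultures. The other 3 duodenum and jejunum markers were in between, among them Slc40a1, above, which was lower in the organoids. Slc10a2 was dim, with organoid signals of 265 and 113, and was above background in the wild type channel of none of the 4 crypt arrays. Of 12 colon markers 5 entered, with B4galnt2 enriched (4.31 and 3.67) and Hoxb13 depleted, and of 13 stomach markers 6 entered with none called. Atp4a, the proton pump of the stomach, was at least 1.47-fold and 1.66-fold higher.

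**Figure D2:**
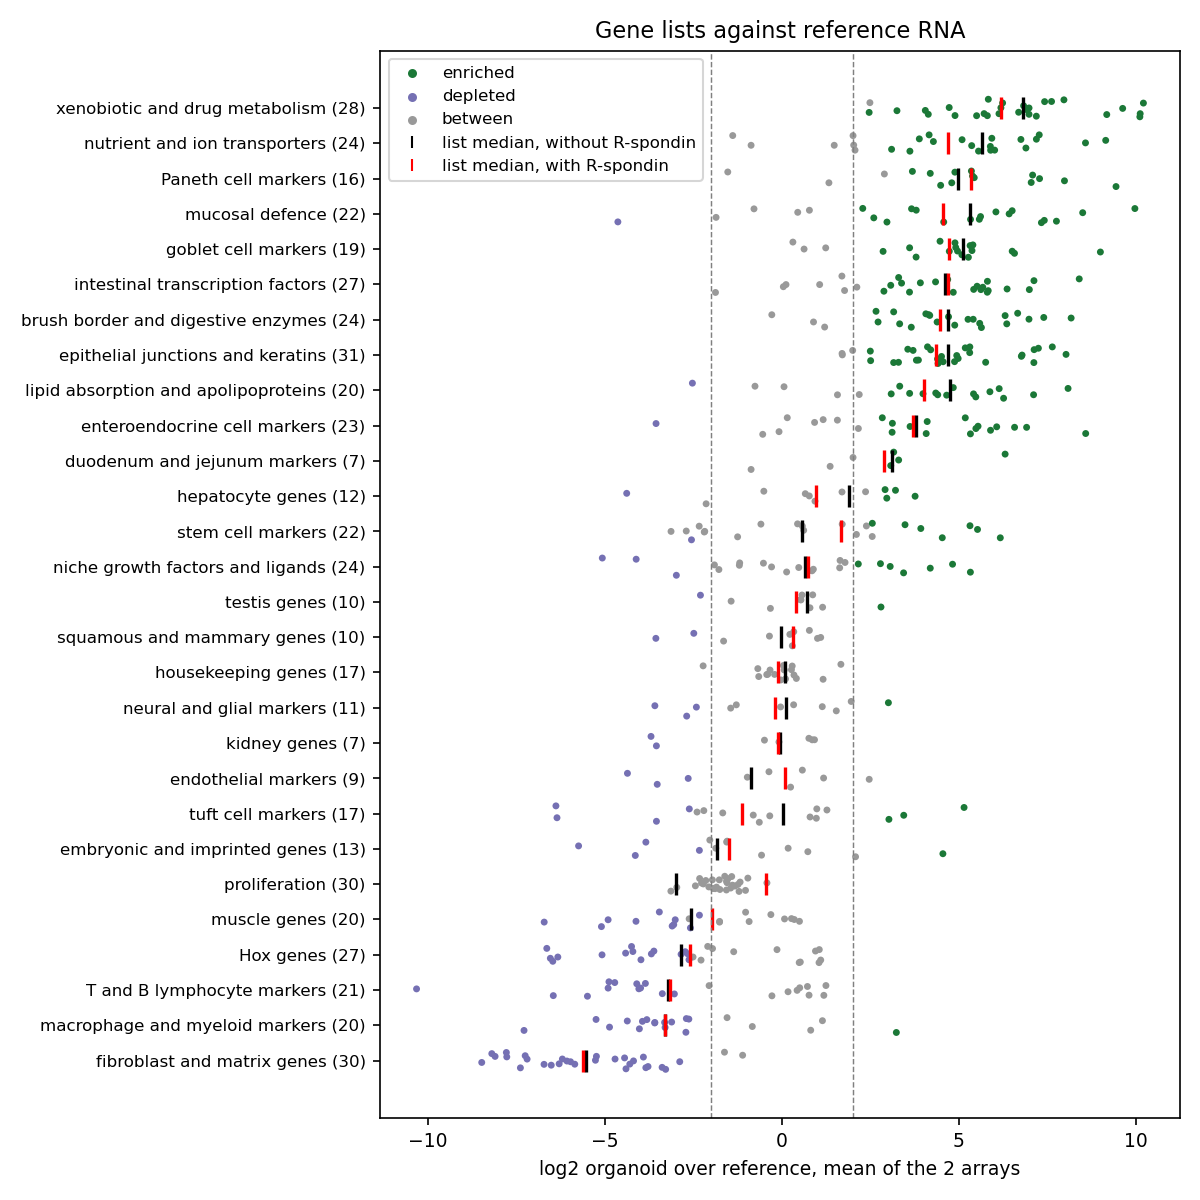
Each point is a gene of a list fixed for the comparison, at its log2 ratio of organoid to reference averaged over the 2 arrays; the number in brackets counts the genes that entered, colours give the call, bars the list medians on each array, and dashed lines 4-fold. Medians of the xenobiotic list (6.80 and 6.20) are the highest and those of the fibroblast and matrix list (-5.52 and -5.62) the lowest, with the 17 housekeeping genes at 0.09 and -0.11.

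Genes that all cells use lay near equality. Of 17 housekeeping genes none was called, medians 0.09 and -0.11. Eef1a1, a translation factor, had 177215 and 136391 in the organoids against 166012 and 137202, ratios of 0.09 and -0.01. Gapdh had 0.31 and -0.18 and Gusb, a lysosomal enzyme, -2.54 and -1.91. Of 30 proliferation genes none was called on both arrays, although the median was -2.98 without R-spondin and -0.44 with it. Mki67 had 6241 and 26612 in the organoids against 73960 and 52134, ratios of -3.57 and -0.97. With R-spondin the organoids thus came near the level of the pooled cell lines in this list, and without it they lay well under.

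Among depleted genes, those of fibroblasts and extracellular matrix stood out in number: 28 of 30 that entered were depleted and none enriched, medians -5.52 and -5.62. Col1a1, the main chain of collagen I, had 636 and 588 in the organoids against 113063 and 91992, ratios of -7.47 and -7.29. Vim (vimentin) had 1294 and 848 against 329326 and 249678, ratios of -7.99 and -8.20. Pdgfra, a growth factor receptor of fibroblasts, was not above background in the organoids on either array and was at least 188-fold and 178-fold lower. The organoid signals of these genes were a small part of the reference on both arrays. Zeb2, Fbn1 and Lum were also not above background in either culture, and Zeb2, a repressor of epithelial genes, was at least 51.2-fold and 49.3-fold lower. Fn1 had -4.14 and -4.24 and Sparc -3.83 and -3.73. Of the 30 members 23 were above background in both cultures and 4 in neither. Signal from few cells and a low level per cell cannot be told apart in bulk RNA, here or in the other lists.

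Immune cell markers were mostly depleted. Of 20 myeloid markers 15 were depleted and 1 enriched, medians -3.30 on both arrays. Cd14, a receptor for bacterial lipopolysaccharide, had 811 and 1085 in the organoids against 14668 and 14086, ratios of -4.18 and -3.70. Adgre1, the F4/80 antigen of macrophages, was not above background in the organoids and was at least 106-fold and 103-fold lower. Tyrobp had -4.23 and -4.50, and Itgam, the enriched member, was at least 7.25-fold and 3.35-fold higher. Aif1, Cybb and Spi1 were not above background in either culture.

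Of 21 lymphocyte markers 12 were depleted and none enriched, medians -3.21 and -3.15. Ptprc (CD45), carried by nearly all white blood cells, had 11.3 and 8.08 in the organoids, not above background, against 12607 and 11701. It was at least 395-fold and 388-fold lower. The T cell adaptor Lat had 365 and 286 against 9020 and 8027, ratios of -4.63 and -4.81. The B cell antigen Ms4a1 had -5.96 without R-spondin and was at least 92.2-fold lower with it. No organoid signal of these 3 genes came near its reference signal. Bcl11b, a T cell factor, lay in between and was slightly higher in the organoids, with 1.23 and 1.25. A dimmer probe of Bcl11b had 2.42 and 2.43, past the threshold on both arrays.

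Hox genes, which pattern the body axis, were depleted in 15 of 27 and enriched in none, medians -2.85 and -2.60. Hoxa10 was at least 25.2-fold and 22.8-fold lower and Hoxc9 had 187 and 61.1 in the organoids against 9208 and 7925, ratios of -5.62 and -7.03. Hoxb6, Hoxa3 and Hoxc4 were in between with 1.13 and 0.77, 1.31 and 0.80, and 1.30 and 0.80. Hoxb6 depends on its probe: the one kept was little brighter than another with -2.54 and -3.22. The list thus held both genes well under the reference and genes near it. Of the 20 muscle genes that entered 10 were depleted, among them Tagln (-5.09 and -5.10) and Acta2 (-3.08 and -2.94), smooth muscle proteins that fibroblasts make too. A second bright probe of Acta2 had -0.56 and -0.84.

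Lists of other tissues had 7 to 13 members each and medians nearer 0 than those of fibroblasts and immune cells. Depleted shares were 20.0% to 33.3% in the squamous and mammary, neural, kidney, embryonic and endothelial lists, and 8.33% and 10.0% in the hepatocyte and testis lists, against 12.3% of all genes. Of 9 endothelial markers 3 were depleted, and Pecam1 was at least 3.97-fold and 3.66-fold lower. Of 11 neural markers 3 were depleted and 1 enriched, and of 13 embryonic and imprinted genes 4 were depleted and 1 enriched. That gene, Dppa5a, known from early embryos, had 14300 and 5321 in the organoids against 399 and 350, ratios of 5.16 and 3.93. Of 12 hepatocyte genes 4 were enriched (33.3%, against 8.65% of all genes) and Hp was depleted (-4.24 and -4.52). Alb was among those enriched, with dim signals of 141 and 71.4 and a bound of at least 3.26-fold and 1.98-fold. In the testis list Prm1 was enriched (2.37 and 3.23, with a dimmer probe at -1.23 and -1.44) and Inha depleted among 10, and in the squamous and mammary list 2 of 10 and in the kidney list 2 of 7 were depleted.

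**Figure D3:**
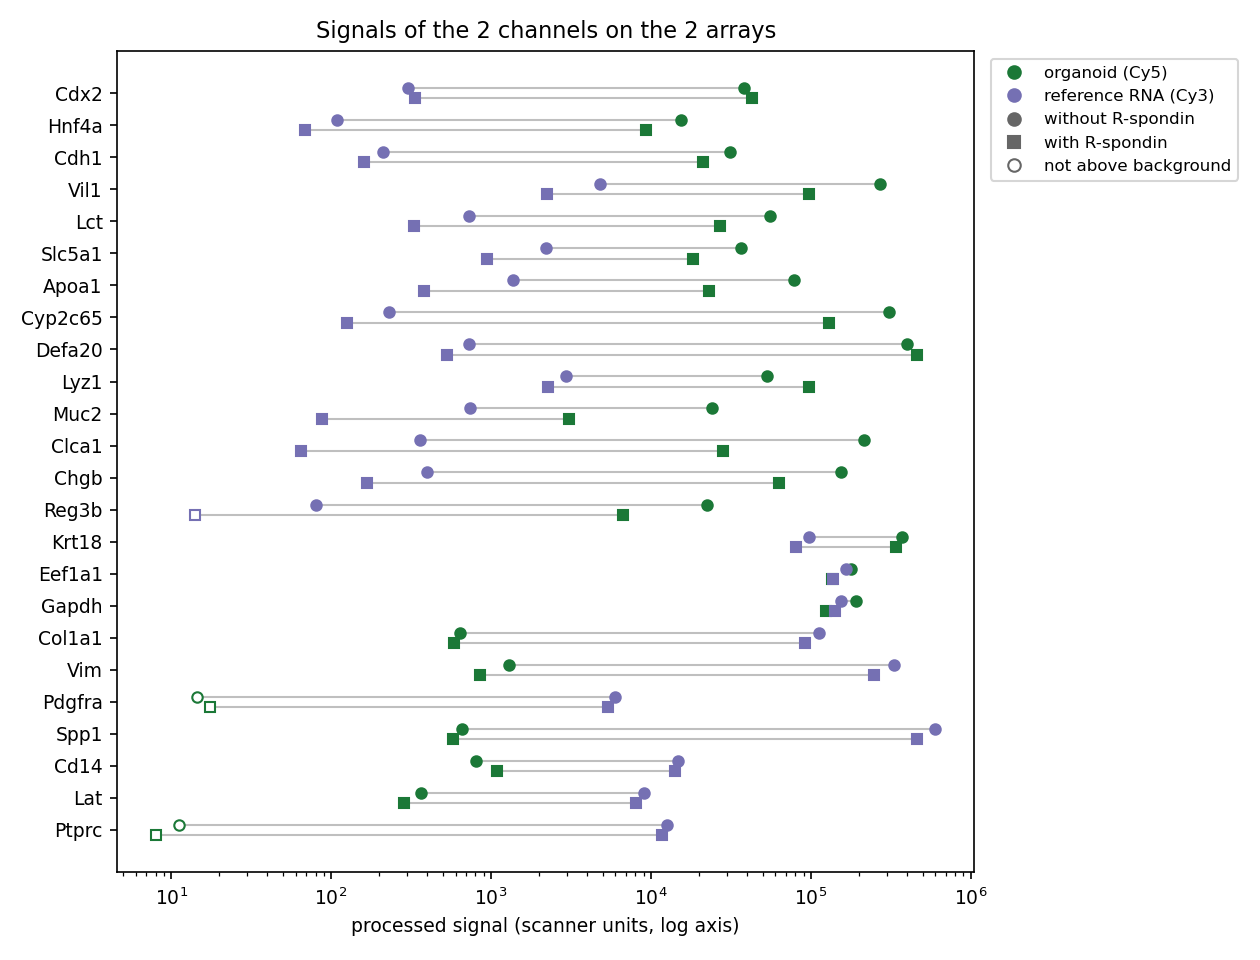
Processed signals (scanner units, log axis) of 24 named genes in organoid RNA (green, Cy5) and reference RNA (purple, Cy3), with circles for the array without R-spondin, squares for the array with it and open symbols for signals not above background; a line joins the 2 channels of an array. Cdx2 runs from about the same reference level to 38379 and 42561 in the organoids, Eef1a1 has all 4 signals close together, and Ptprc has organoid signals not above background against 12607 and 11701.

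Several genes furthest past the threshold belonged to none of the lists. Cps1, the enzyme that opens the urea cycle and is present in enterocytes, had 33973 and 70420 in the organoids and signals not above background in the reference, at least 786-fold and 1642-fold higher. H2-Q1, a class I histocompatibility gene with close copies, had 89157 and 22360, a ratio of 10.16 and at least 620-fold. The glucuronosyltransferases Ugt2b5, Ugt2b35 and Ugt2a3 were at least 912-fold, 475-fold and 870-fold higher without R-spondin. Of these, Ugt2b5 was a member of the xenobiotic list and is counted there too. Spink1, a trypsin inhibitor, had 9.56 and 9.30, Gjb2, a gap junction protein, was at least 86.2-fold and 140-fold higher, and Tmprss4, a membrane protease, had 8.70 and 8.43. All of these lay past 64-fold on both arrays. The scanner software's own error of the log2 ratio for Cps1 was 1.03 and 1.07, which covers error within an array only.

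At the other end, Spp1 (osteopontin) had 656 and 580 in the organoids against 599345 and 463581, ratios of -9.84 and -9.64. Cav1, the coat protein of caveolae, had 115 and 68.8 against 61434 and 51944, ratios of -9.06 and -9.56, and its partner Cav2 was at least 127-fold and 124-fold lower. Cdh11, a mesenchymal cadherin, was at least 114-fold and 110-fold lower. Vcam1, an adhesion molecule for white blood cells, was at least 188-fold and 176-fold lower, and Gja1, a gap junction protein, at least 57.9-fold and 56.5-fold. A ratio does not separate a high level in the pooled cell lines from a low level in the organoids.

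For strongly enriched genes the reference signal was not the same on the 2 arrays, although the labels give the same RNA. Among the 86 genes past 64-fold with a reference above background on both, the organoid signal was higher without R-spondin by a median of 1.27 on the log2 scale and the reference signal by 1.02. Across these genes the 2 differences had a Pearson r of 0.859, as a description. Over all 23326 spots above background the reference differed between arrays with an SD of 0.204. Among 4545 genes called neither way with a reference signal under 500, the medians were 0.33 and 0.14 and r was 0.178. Clca1 is an example: 215387 and 28306 in the organoids and 360 and 65 in the reference. Over all 974 enriched genes with a reference above background on both arrays, the medians were 0.88 and 0.29 and r was 0.684. The reference thus moved with the organoid in enriched genes, and its part in the size of their ratios was not tested.

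**Figure D4:**
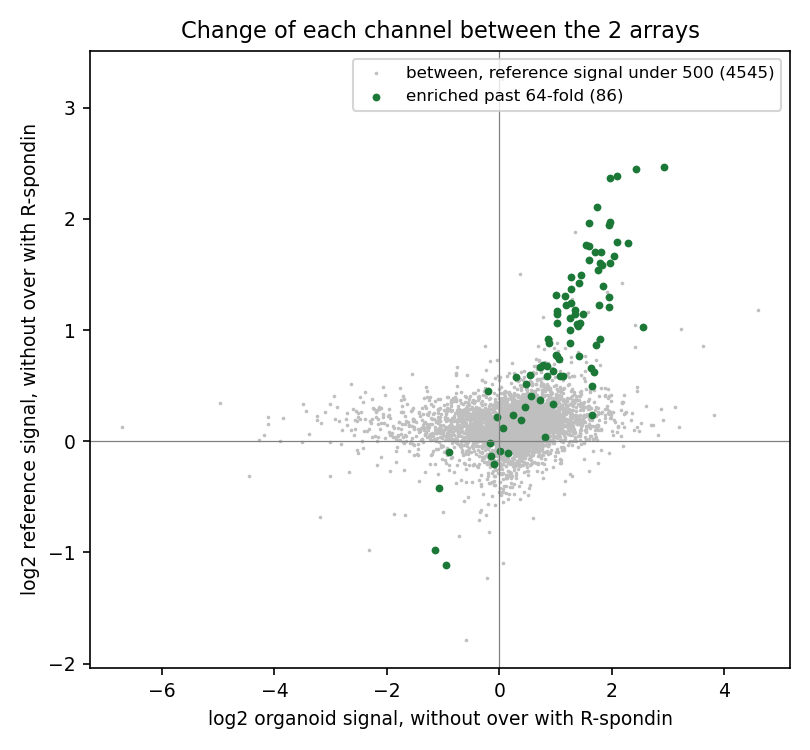
For each gene, the log2 ratio between the arrays without and with R-spondin of the organoid signal (horizontal axis) and of the reference signal (vertical axis); green points are the 86 genes past 64-fold with a reference above background, grey points the 4545 genes called neither way with a reference signal under 500. The green points rise along a line (r = 0.859) and the grey cloud lies flat (r = 0.178).

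The calls were looked up on arrays that had not been used for them. Of the enriched genes measured on both wild type organoid arrays, 1235 of 1413 (87.4%) were above background in the organoid channel of both, against 741 of 2021 depleted genes (36.7%) and 70.6% of all that entered. The log2 ratio was above 0 for 93.8% and 91.6% of enriched genes on the 2 arrays and for 43.1% and 44.7% of depleted genes. Over all genes that entered, these shares were 77.2% and 76.2%, so most of the share in enriched genes was shared by all. Medians there were 1.31 and 1.55 for enriched and 0 and 0 for depleted genes, against 0.60 and 0.80 for all. Those ratios were smaller than the ones above, and the reference was above background for 6.54% and 6.16% of all genes on these arrays. In the wild type channel of all 4 crypt arrays 980 of 1228 enriched genes (79.8%) were above background, against 390 of 1900 depleted genes (20.5%) and 62.7% of all. The entry rule bears on these shares, since many depleted genes entered through the reference channel alone. Among genes above background in both organoid cultures, the share above background on all 4 crypt arrays was 371 of 1049 for depleted genes (35.4%) and 68.0% over all, and on both wild type organoid arrays 64.7% and 76.3%. Detection depends on the level in the tissue as well as on the array, and no test was made.

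**Figure D5:**
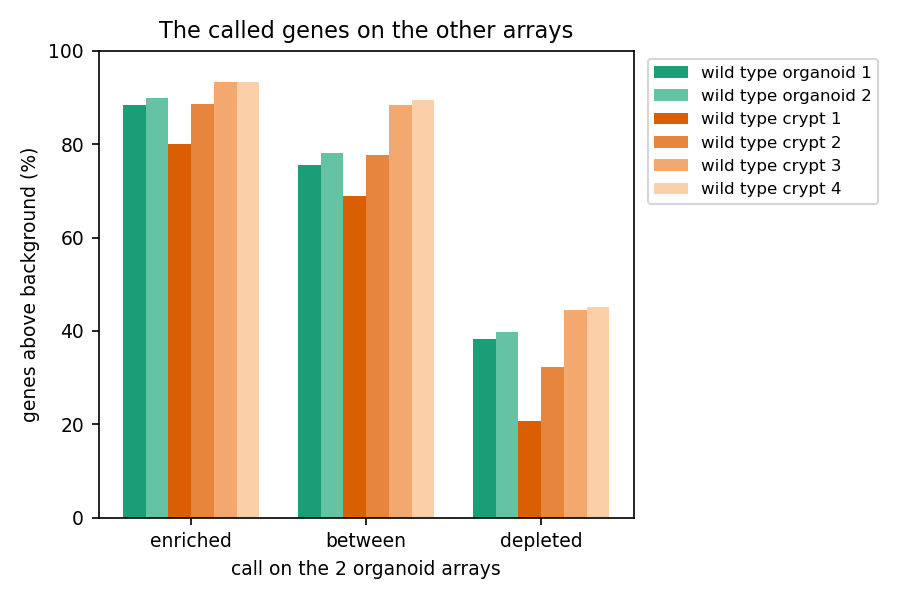
Bars give the percentage of genes above background in the 2 wild type organoid arrays and in the wild type channel of the 4 crypt arrays, for genes enriched, in between or depleted on the arrays with and without R-spondin. Enriched genes range from 80.1% to 93.2% and depleted genes from 20.7% to 45.1%, over genes measured on each array.

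Detection in fresh crypts is given here by list. Over all genes that entered, 62.7% were above background in the wild type channel of all 4 crypt arrays and 14.6% in none. All 12 goblet markers, all 21 xenobiotic genes and all 14 lipid genes measured on the 4 crypt arrays were above background in each wild type channel. Brush border genes and transporters were so in 18 of 21 each, genes of mucosal defence in 11 of 16 with 3 on none, and tuft markers in 9 of 15 with 2 on none. The defence and tuft lists thus lay near the shares of all genes. Of 29 fibroblast and matrix genes 6 were above background on all 4 and 13 on none, and of 13 myeloid markers 2 and 5. Some fibroblast, matrix and myeloid genes entered through the reference channel alone, which bears on these counts. Ptprc, not above background in either organoid culture, was above it in the wild type channel of all 4 crypt arrays. Zeb2, Pdgfra and Lum were above it in none. Isolated crypts can carry attached cells of the tissue, and the share of such cells was not tested.

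Dye and sample cannot be told apart on these arrays, since the organoid was always in Cy5. On the crypt arrays, where dyes were swapped, the mean ratio of Cy5 to Cy3 estimated a dye effect for 14645 genes, with an SD of 0.224. Its size was 1 or more for 7 genes, of which 1 was enriched and none depleted, and its median was -0.03 for enriched and 0 for depleted genes. Across genes, the dye effect had a Pearson r of 0.268 between the crypt replicates. Subtracting it left 1435 of the 1489 enriched genes and 2043 of the 2110 depleted genes called. Only 1228 of the enriched and 1900 of the depleted genes had an estimate to subtract. Genes without an estimate could not change and are included in the counts that stayed called, so for them the dye was not tested. Where a gene had several probes, they were called alike for 290 of 386 enriched genes (75.1%) and 365 of 583 depleted genes (62.6%). Angpt4 and Eml6 among the enriched, and Pik3r1 and Tubb6 among the depleted, had a probe called the other way.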

How the data were processed

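Total RNA was labelled and hybridised to Agilent two-colour arrays. Per the file headers, spots were quantified with Agilent Feature Extraction 10.5.1.1, and the submitters' processing notes name 8.5.1.1. The authors deposited 45018 spots per array with intensity values (processed signals, background-subtracted and dye-normalised), a log10 ratio of Cy5 over Cy3 with its error, and a p-value that covers error within an array, per the file headers. The deposited series table held the same log10 ratios. No spot was saturated. The arrays with and without R-spondin were on the same slide and scan.

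Here log10 ratios were converted to log2. Spots marked by the software as outliers were left out (6.47% and 3.27%), and a probe entered when above background in Cy5 on both arrays or Cy3 on both. A gene was represented by its brightest probe. Names came from accessions for 28661 spots, symbols for 5396, synonyms for 952 and the file for 8370, with the RefSeq table of GRCm38.p6. Calls needed 4-fold on both arrays. A bound divides the bright signal by the higher of the dim signal and the lowest signal above background in that channel (43.2 and 36.0 in Cy3, 31.9 and 30.2 in Cy5). Precision is limited by the number of arrays. No test was run, and no p-value was computed.

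Named genes are the 25 furthest past the threshold in each direction and up to 8 members per list, with those not measurable and those holding a printed motif named beside them. A few of these genes are not reported here. Members and lists were chosen with earlier results of these data known. Alternatives included limma 3.58.1 (R 4.3.3) with normexp and loess, other filters, folds and probe rules, dye correction and each array alone. Calling was tested on simulated data.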

Additional observations from a re-analysis of the deposited data

Results flagged for a closer look

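Of the 17205 genes, 2 passed 4-fold in opposite directions on the 2 arrays with every signal above background. Rgcc, a regulator of the cell cycle, had organoid signals of 247 without R-spondin and 24396 with it, against 2942 and 2868 in the reference, log2 ratios of -3.58 and 3.09. Pla2g5, a secreted phospholipase, had 153 and 7319 against 1607 and 1681, ratios of -3.40 and 2.12. In both the reference signals were close and the organoid signals were not. Each medium had 1 culture, so the difference was not tested. Ripor2 had a ratio of 2.10 with R-spondin, and without it the organoid signal was not above background, at least 1.90-fold lower than the reference.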

How the results depend on the processing

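No paired analysis was possible because each medium had 1 culture and no test was run. Against 1489 enriched and 2110 depleted genes, normexp with loess gave 962 and 1326, of which 948 and 1325 were among those called. A filter on both channels gave 975 and 1178, a 2-fold threshold 2978 and 3466, and an 8-fold threshold 893 and 1358. The array with R-spondin alone gave 1646 and 2339, and the array without it 2035 and 2893. The other settings stayed within 1.5 times the counts. Of the gene lists, 17 had a median past 4-fold, and 13 to 18 over the settings. With the bound in place of each ratio against a signal not above background, chosen after seeing the data, 1285 and 1832 were called, all of them among those called by ratio, and 17 lists had a median past 4-fold. The median log2 bound was 2.66 for enriched and 2.65 for depleted genes, and 1.40 and 1.37 from loess and Aquantile signals. With the median over a gene's probes, Eml6 (called enriched) had a mean log2 ratio of -0.29 and Pik3r1 (called depleted) 0.12. Of 1649 values of named genes over the settings, 303 moved without such a change of sign by more than the SD between the arrays. Dim signals limit the ratios of 416 enriched and 805 depleted genes.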

Other observations

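Gene families, grouped by the start of their symbols after the values were seen, gave further calls. Those named are some of the families grouped, and over all genes that entered 8.65% were enriched and 12.3% depleted. Many Ces, Ugt and Cyp genes have near-identical copies, so they are not independent members. Of 13 carboxylesterase genes (Ces) 12 were enriched, of 11 glucuronosyltransferases (Ugt) 10, of 53 cytochrome P450 genes (Cyp) 35 with 1 depleted, and of 16 glutathione transferases (Gst) 11 with 1 depleted. All 7 Reg genes that entered were enriched. Of 37 genes whose symbols start with Col, most of them collagens, 19 were depleted and none enriched, and of 21 Ifi genes, known for their response to interferon, 12 were depleted and 1 enriched. Of 6 Cxcl chemokines 5 were depleted, and Cxcl16 was enriched (3.06 and 2.13). Mitochondrial ribosome genes had no call among 43 Mrpl and 28 Mrps genes, and none among 40 Nduf genes of the respiratory chain.

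Of 1228 enriched genes measured on all 4 crypt arrays, 73 were above background in no wild type channel (5.94%). The share was 14.6% over all genes that entered and 9.34% over those called neither way. The entry rule bears on this difference, since every enriched gene was above background in both organoid cultures and many depleted genes were not. Of these 73, 52 had an approved symbol. For the 4 named here the reference was not above background on either array. Spp2 was at least 15.5-fold higher in the organoids without R-spondin and 31.2-fold with it, and Slc15a2, a peptide transporter, at least 10.8-fold and 11.7-fold. The bounds were 6.12-fold and 3.12-fold for Slc10a2 and 11.8-fold and 3.78-fold for Cyp2c39. These genes were named after their values were seen.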
